A study of Mus musculus with 6 samples.

Results

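The 10 genes described here encode receptors on the surface of T-lineage cells that adjust the signal from the T cell receptor: Cd2, Cd5 and Cd6, the CD28 family members Cd28, Ctla4 and Icos, the tumour necrosis factor receptor Cd27, and the SLAM family members Slamf1, Slamf6 and Cd48. They were picked by gene symbol with earlier results of these data known, so the counts called among them are descriptions. Each was measured by 1 probe set among 19937 genes with a probe set of a single symbol. The data were 6 one-colour mouse arrays of Thy1.2+ cells from E17.5 (embryonic day) Rag1-/- fetal thymi, in 3 groups of 2 arrays. The first group held cells stimulated for 40 h with anti-CD3 in the presence of 50 µM 79-6, a small-molecule inhibitor of the repressor Bcl6 that binds its BTB domain. Inhibition of Bcl6 itself was not measured. The second held cells given anti-CD3 and the vehicle DMSO over the same 40 h. The third held fresh cells at 0 h, which received neither antibody nor vehicle. Every group carried the Rag1 deletion, which prevents rearrangement of T cell receptor genes and holds thymocytes at DN3, an early CD4-negative and CD8-negative stage. Anti-CD3 stands in for the absent pre-T cell receptor. DMSO and fresh cells differ in culture, time, vehicle and antibody together. The series design names organ culture of whole thymi, and sorting, whereas the sample labels mention stimulation and magnetic purification. Neither says whether embryos were pooled or whether the 2 arrays of a group came from separate litters or cultures, so the p-values cover array-to-array spread alone, which may be technical.

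CD2 and CD28 are costimulatory: their engagement adds to the signal that a T cell receives through its antigen receptor. CTLA-4 competes with CD28 for the ligands CD80 and CD86 and restrains the response, ICOS binds its own ligand ICOSL, and CD27 binds CD70. CD5 and CD6 are related scavenger-type receptors that dampen or shape T cell receptor signals, and surface CD5 on thymocytes follows the strength of that signal. The SLAM receptors SLAMF1 and SLAMF6 bind themselves on neighbouring cells and signal through the adaptor SAP, and CD48 is the ligand of CD2 in the mouse and of CD244. Thymocytes that pass the DN3 checkpoint are known to gain CD2, CD5, CD27 and CD28.

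Values are probe set intensities as deposited, given per array, and changes are differences of log2 intensities with a standard error (SE) from a limma fit of all 6 arrays. A gene is called changed at a Benjamini-Hochberg adjusted p under 0.05 over 19937 genes. Levels of different probe sets are not set against each other, except in the summed intensities of marker lists. Those sums follow their brightest probe sets, and the largest contributor is named for some lists. Array medians were 99.3 to 103.6, and no array stood apart by this measure. Replicate arrays correlated at 0.997 (79-6), 0.998 (DMSO) and 0.998 (fresh) across genes. The Rag1 probe set averaged 10.83 ± 0.02 with 79-6, 11.12 ± 0.04 in DMSO and 11.46 ± 0.06 in fresh cells on the log2 scale (SD, n = 2 each). Every group carries the deletion and the place of the probes relative to it is not known here, so this signal checks no label. Thy1, the antigen used for purification, averaged 13.07 ± 0.02 with 79-6, 13.23 ± 0.04 in DMSO and 12.80 ± 0.03 in fresh cells on the log2 scale (SD, n = 2 each). Bcl6 averaged 8.53 ± 0.02 with 79-6, 9.08 ± 0.14 in DMSO and 7.43 ± 0.10 in fresh cells (SD, n = 2 each). Its log2 change with 79-6 against DMSO was -0.55 (adjusted p = 0.0251 by limma). The call, though not the lower level, was lost without DMSO replicate 1, DMSO replicate 2, 79-6 replicate 1 or 79-6 replicate 2.

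The comparison of DMSO-treated stimulated cells with fresh cells asks what 40 h of anti-CD3 culture changed. Cd2, Cd6, Cd28 and Cd5 rose by between 4.68-fold and 10.2-fold, Cd27 rose 1.58-fold and Slamf1 1.33-fold. Ctla4 fell 1.93-fold. Slamf6, Cd48 and Icos did not pass the test. Thus 6 of 10 receptors were called higher and 1 lower, where 19.6% of all genes were called in this comparison, 8.89% higher and 10.7% lower. The direction of the background depends on the scaling: 1773 genes were higher and 2129 lower as deposited, against 2388 higher and 1716 lower with the arrays set to 1 median. The median change of the 10 receptors was 0.54 and that of all genes 0.02 on the log2 scale. The DMSO and fresh arrays did not overlap for 9 of the 10 receptors, nor for 60.0% of all genes.

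The comparison of 79-6 with DMSO, both after 40 h of anti-CD3, asks what the compound changed. Slamf1 fell 2.05-fold and Cd6 1.62-fold, while Cd48 rose 1.47-fold and Icos 1.43-fold. The other 6 receptors did not pass the test. The 4 calls among 10 receptors stood beside a background of 4.36% of all genes, 2.38% higher and 1.98% lower. Here too the scaling decided the larger direction of the background, with 475 genes higher and 394 lower as deposited and 456 higher and 684 lower with the arrays set to 1 median. The median change of the 10 receptors was -0.02 and that of all genes 0.02 on the log2 scale. Arrays did not overlap between 79-6 and DMSO for 8 of the 10 receptors and for 49.0% of all genes. Of the 4 calls, Slamf1 alone survived the omission of any single array. The members called numbered 1 without DMSO replicate 1, DMSO replicate 2 or 79-6 replicate 2, and 3 without 79-6 replicate 1.

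**Figure D1:**
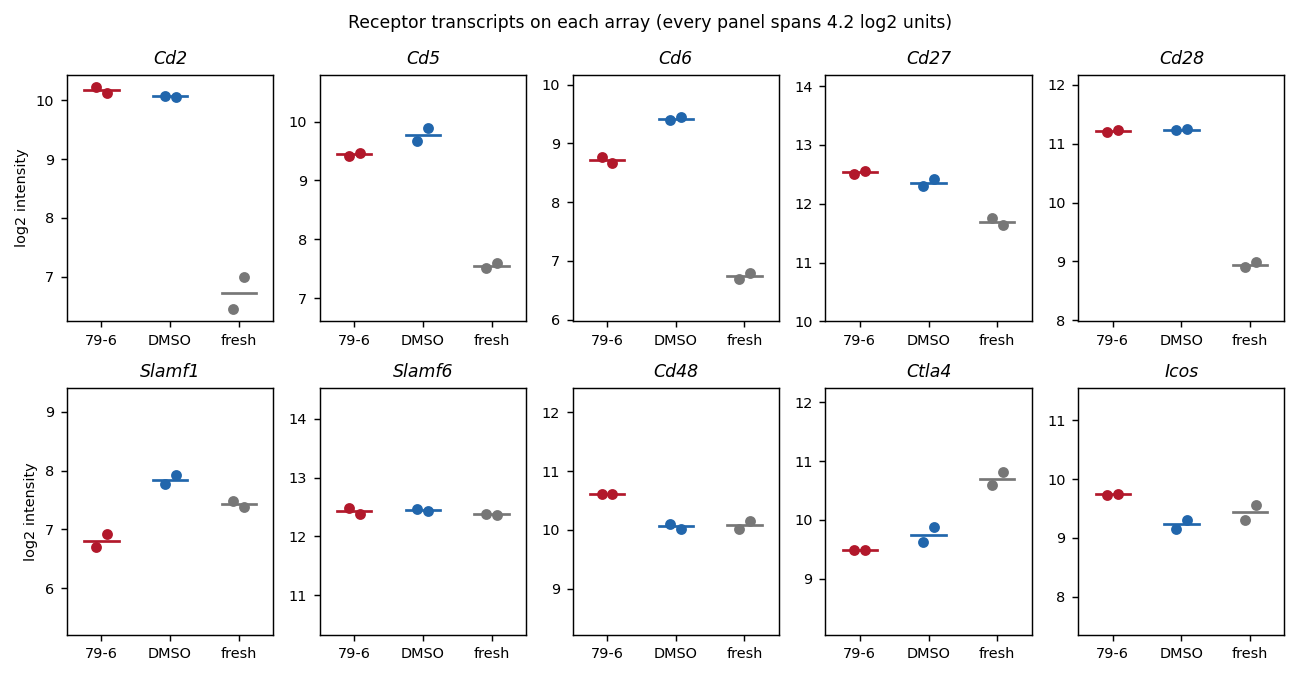
Log2 intensity of each receptor transcript on each array, with the 79-6, DMSO and fresh groups from left to right. Points are arrays, horizontal bars are means of the 2 arrays, and all panels span the same height: Cd2, Cd5, Cd6 and Cd28 lie far lower in fresh cells, Slamf1 is lowest with 79-6, and Slamf6 lies level in the 3 groups.

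**Figure D2:**
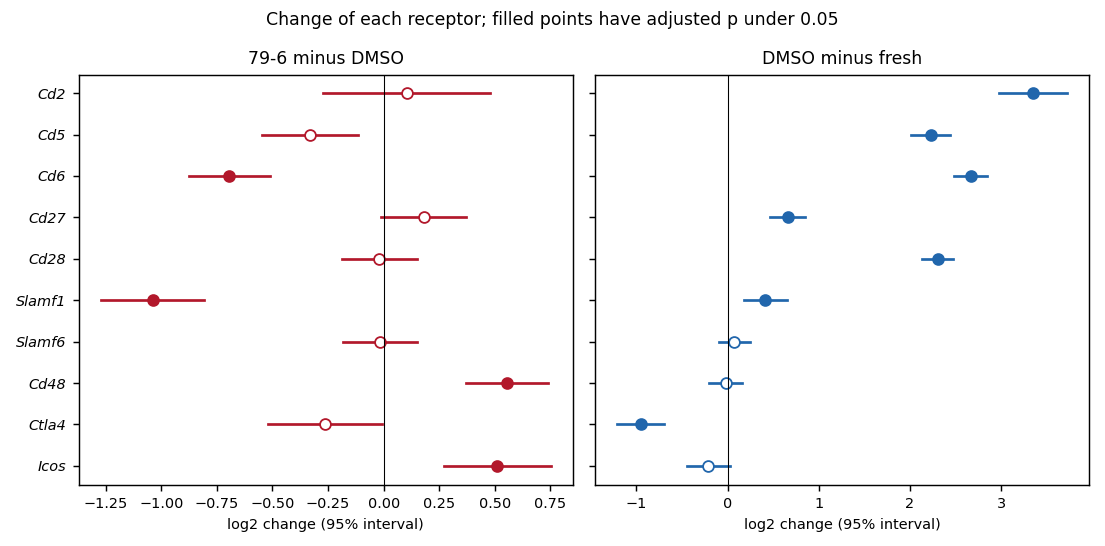
Log2 change of each receptor for 79-6 minus DMSO (left) and DMSO minus fresh (right), with 95% intervals from the limma fit; filled points have an adjusted p under 0.05. The horizontal scales differ: changes with 79-6 run between -1.04 and 0.56, those of culture between -0.95 and 3.35.

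Cd2, the adhesion and costimulatory receptor whose mouse ligand is CD48, changed most. Its intensity was 1196 and 1114 on the 79-6 arrays, 1082 and 1066 on the DMSO arrays, and 87.5 and 127 on the fresh arrays. All 4 cultured arrays were high and close together, and the fresh arrays were low and further apart from each other (6.72 ± 0.38 on the log2 scale, SD, n = 2). The log2 change for DMSO against fresh was 3.35 ± 0.16 (SE, adjusted p = 2.59e-05 by limma). For 79-6 against DMSO it was 0.10 ± 0.16, with a 95% interval from -0.27 to 0.48. Over the 12 alternatives the change for DMSO against fresh lay between 3.07 and 3.62.

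Cd5, which restrains T cell receptor signals, had intensities of 685 and 709 with 79-6, 812 and 948 in DMSO, and 183 and 193 in fresh cells. Both 79-6 arrays lay below both DMSO arrays and all 4 lay well above the fresh ones. The log2 change for DMSO against fresh was 2.23 ± 0.09 (SE, adjusted p = 1.67e-05 by limma). The change with 79-6 against DMSO, -0.33 ± 0.09, did not pass the test (adjusted p = 0.0967 by limma). It passed with the arrays set to 1 median (-0.38, adjusted p = 0.0481 by limma).

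Cd6, the receptor for ALCAM and a close relative of CD5, had intensities of 438 and 407 with 79-6, 671 and 695 in DMSO, and 104 and 112 in fresh cells. The groups were separate, with 79-6 between DMSO and fresh. The log2 change for DMSO against fresh was 2.66 ± 0.08 (SE, adjusted p = 6.84e-06 by limma). With 79-6 against DMSO Cd6 fell by 0.69 ± 0.08 on the log2 scale (SE, adjusted p = 0.00768 by limma). This call was lost without DMSO replicate 1 (adjusted p = 0.0594), DMSO replicate 2 (0.0754) or 79-6 replicate 2 (0.0516), while the change itself stayed between -0.75 and -0.64 in the 12 alternatives. Against fresh cells Cd6 with 79-6 remained higher by 1.97 ± 0.08 (SE, adjusted p = 1.1e-05 by limma).

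Cd28, the main costimulatory receptor for CD80 and CD86, had intensities of 2359 and 2421 with 79-6, 2398 and 2445 in DMSO, and 477 and 505 in fresh cells. The 79-6 and DMSO arrays overlapped and both were far above the fresh ones. The log2 change was 2.30 ± 0.07 for DMSO against fresh (SE, adjusted p = 6.84e-06 by limma). It was -0.02 ± 0.07 for 79-6 against DMSO, with a 95% interval from -0.19 to 0.15.

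Ctla4, the inhibitory counterpart of Cd28, ran the other way. Its intensity was 715 and 720 with 79-6, 792 and 938 in DMSO, and 1546 and 1799 in fresh cells. Fresh arrays were highest and 79-6 arrays lowest, with no overlap between groups. The log2 change for DMSO against fresh was -0.95 ± 0.11 (SE, adjusted p = 0.00108 by limma). With 79-6 against DMSO it was -0.26 ± 0.11 and not called (adjusted p = 0.231 by limma). Ctla4 transcripts in Rag1-/- thymocytes are shown here only as probe set signal, and protein was not measured.

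Icos, the third member of that family, had intensities of 850.0 and 859 with 79-6, 571 and 630.0 in DMSO, and 635 and 758 in fresh cells. The 79-6 arrays were highest, and the DMSO arrays lay just below the fresh ones. The log2 change for 79-6 against DMSO was 0.51 ± 0.10 (SE, adjusted p = 0.0414 by limma). This call was lost without DMSO replicate 1 (adjusted p = 0.185), DMSO replicate 2 (0.136), 79-6 replicate 1 (0.0843) or 79-6 replicate 2 (0.171). Against fresh cells the change with 79-6 was 0.30 ± 0.10 and missed the threshold (adjusted p = 0.07 by limma), and without fresh replicate 2 it was called (0.43, adjusted p = 0.0379). DMSO against fresh gave -0.21 ± 0.10 (adjusted p = 0.215 by limma).

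Cd27, the receptor for CD70, had intensities of 5841 and 6019 with 79-6, 5019 and 5463 in DMSO, and 3453 and 3190 in fresh cells. The groups did not overlap and ran in that order from high to low. DMSO against fresh gave a log2 change of 0.66 ± 0.08 (SE, adjusted p = 0.00146 by limma). The step with 79-6 against DMSO, 0.18 ± 0.08, was not called (adjusted p = 0.269 by limma), with a 95% interval from -0.01 to 0.37.

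Slamf1, a self-binding SLAM receptor, was the receptor that 79-6 lowered most. Its intensity was 104 and 121 with 79-6, 219 and 242 in DMSO, and 179 and 167 in fresh cells. Both 79-6 arrays lay below both fresh arrays, which lay below both DMSO arrays. Slamf1 in 79-6 against DMSO fell by 1.04 ± 0.10 on the log2 scale (SE, adjusted p = 0.00397 by limma), and its adjusted p stayed at or under 0.0449 in the 12 alternatives. Against fresh cells the change with 79-6 was -0.62 ± 0.10 (SE, adjusted p = 0.00359 by limma). The rise in DMSO against fresh cells, 0.41 ± 0.10 (SE, adjusted p = 0.0253 by limma), was less secure. It was not called without fresh replicate 1 (adjusted p = 0.0687), fresh replicate 2 (0.139), DMSO replicate 1 (0.057) or DMSO replicate 2 (0.139).

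Cd48, the glycolipid-anchored ligand of CD2, had intensities of 1567 and 1572 with 79-6, 1099 and 1036 in DMSO, and 1034 and 1135 in fresh cells. The 79-6 arrays stood above the other 4, which overlapped. The log2 change was 0.56 ± 0.08 for 79-6 against DMSO (SE, adjusted p = 0.0157 by limma) and 0.53 ± 0.08 for 79-6 against fresh (SE, adjusted p = 0.00261 by limma). The first call was lost without DMSO replicate 1 (adjusted p = 0.0794), DMSO replicate 2 (0.115) or 79-6 replicate 2 (0.0847). The second was kept in each of the 12 alternatives. DMSO against fresh gave -0.02 ± 0.08, with a 95% interval from -0.21 to 0.16.

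Slamf6, another self-binding SLAM receptor, was the steadiest of the 10. Its intensity was 5717 and 5356 with 79-6, 5655 and 5538 in DMSO, and 5331 and 5297 in fresh cells. The 79-6 and DMSO arrays overlapped, and the fresh arrays lay slightly below both. The log2 change was -0.02 ± 0.07 for 79-6 against DMSO, 0.07 ± 0.07 for DMSO against fresh and 0.06 ± 0.07 for 79-6 against fresh. The 95% intervals of the 3 changes together ran from -0.18 to 0.24, so changes beyond these bounds were not seen, whereas smaller ones could not be resolved with 2 arrays a group.

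Set against fresh cells, the 79-6 group had 6 receptors higher and 2 lower, with 26.0% of all genes called, 12.0% higher and 13.9% lower. This comparison shares its fresh arrays with the DMSO comparison, so the values are given side by side. The log2 changes for 79-6 and for DMSO, each against fresh, were 3.45 and 3.35 for Cd2, 1.89 and 2.23 for Cd5, 1.97 and 2.66 for Cd6, and 2.28 and 2.30 for Cd28. They were 0.84 and 0.66 for Cd27 and -1.22 and -0.95 for Ctla4. The 79-6 and fresh arrays did not overlap for any of the 10 receptors, nor for 64.5% of all genes. The 8 calls survived the omission of any single array.

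Markers of other cell types moved with these groups. A bulk sample cannot tell more or fewer cells of a type from more or less RNA per cell. The counts of called markers, here and in the lists that follow, stand beside shares over all genes. These were 2.38% higher and 1.98% lower in 79-6 against DMSO, and 8.89% higher and 10.7% lower in DMSO against fresh. The summed intensity of 10 macrophage and dendritic cell markers was 19424 to 21896 with 79-6, 14997 to 16141 in DMSO and 4981 to 6764 in fresh cells. Of these markers 3 were higher with 79-6 than in DMSO and none lower, among them the integrin gene Itgax (1.14). Each of these calls was lost on omission of some single array. That of Itgax was lost without DMSO replicate 1, DMSO replicate 2 or 79-6 replicate 2. In DMSO against fresh cells 4 of 10 were higher and none lower, with a median change of 0.24. Lyz2 changed most there (3.88) and contributed most to the summed intensity of the cultured arrays. The summed intensity of 8 natural killer (NK) and innate-lymphoid markers was 5468 to 5636 with 79-6, 2686 to 2822 in DMSO and 6040 to 7076 in fresh cells. With 79-6 against DMSO 4 of these 8 were higher, and Nkg7 (1.12) alone kept its call on omission of any single array. Among the others was the granzyme Gzmb (1.13), whose call was lost without DMSO replicate 2, 79-6 replicate 1 or 79-6 replicate 2. In DMSO against fresh cells 5 of 8 were lower. Macrophages and NK cells can carry CD48, and activated NK and innate-lymphoid cells can carry ICOS. Purification on Thy1.2 is meant to remove macrophages, whereas some innate-lymphoid cells carry Thy1. The rises of Cd48 and Icos with 79-6 against DMSO ran alongside these markers. In DMSO against fresh cells the macrophage and dendritic sum was higher and the NK and innate-lymphoid sum lower. There Cd48 changed by -0.02 and Icos by -0.21, and neither was called. With 79-6 against fresh cells the macrophage and dendritic sum was higher. The NK and innate-lymphoid sum was lower there, although 3 of its 8 markers were called higher and 1 lower. In that comparison Cd48 changed by 0.53, which was called, and Icos by 0.30, which was not. The part of other cells in the changes of Cd48 and Icos was not tested. None of the measured markers was listed at 0, but no deposited intensity fell below 8.75, so a listed value alone does not show expression.

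The T-lineage markers had a summed intensity of 32304 to 34002 with 79-6, 30330 to 31303 in DMSO and 38559 to 39550 in fresh cells. Of the 6 measured, 1 was higher with 79-6 than in DMSO (Cd7, 1.11, not called without DMSO replicate 1, DMSO replicate 2 or 79-6 replicate 2) and none lower, while Cd3e changed by 0.01 ± 0.07. In DMSO against fresh cells all 6 were called, Thy1 (0.43) and Cd7 (0.67, lost without DMSO replicate 1 or DMSO replicate 2) higher and Cd3e, Cd3g, Cd3d and Ptcra lower, with a median change of -0.47. Granulocyte markers had a summed intensity of 5965 to 7786 with 79-6, 4026 to 4186 in DMSO and 1024 to 1303 in fresh cells. In 79-6 against DMSO the 8 granulocyte markers went both ways: Mmp8, which contributed most to the sum, was higher (1.30, adjusted p = 0.0197 by limma) and Mpo lower (-0.86, adjusted p = 0.0363 by limma). Neither call survived the omission of DMSO replicate 1, DMSO replicate 2 or 79-6 replicate 2, and Mpo was also lost without 79-6 replicate 1. In DMSO against fresh cells 5 of the 8 were higher and none lower. Thymic epithelial markers summed to 2829 to 2898 with 79-6, 2295 to 3279 in DMSO and 7470 to 7587 in fresh cells, with 6 of 8 lower in DMSO than in fresh cells. Mast cell markers summed to 1039 to 1143 with 79-6, 1351 to 1535 in DMSO and 3701 to 4109 in fresh cells. Cpa3 contributed most to the sums in fresh cells and in DMSO, and Kit to those with 79-6. Of these 7 markers Cpa3 was lower (-1.43, adjusted p = 0.00363 by limma) and Kit, which early thymocytes also carry, higher (1.06, adjusted p = 0.00314 by limma) with 79-6 than in DMSO, and both calls survived the omission of any single array. Both were lower in DMSO than in fresh cells (-1.61 for Cpa3, -1.65 for Kit), and the other 5 were not called in either comparison. The fall of the mast cell sums in DMSO against fresh cells thus rests on Cpa3 and Kit. A change in the number of mast cells was not tested. Of 6 B cell markers, 1 was higher with 79-6 than in DMSO (Cd79b, 0.50, not called without DMSO replicate 1, DMSO replicate 2 or 79-6 replicate 2) and none lower, with a median change of 0.00. In DMSO against fresh cells 1 of the 6 was lower (Ebf1, -1.12) and none higher. Their sums were 2746 to 3002 with 79-6, 2051 to 2144 in DMSO and 2460 to 2546 in fresh cells, and Cd79b contributed most to them. The 8 mesenchymal and endothelial markers summed to 2666 to 2731 with 79-6, 2621 to 2880 in DMSO and 3864 to 4022 in fresh cells, and the 3 erythroid markers to 269 to 336 with 79-6, 254 to 260.2 in DMSO and 615 to 977 in fresh cells.

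**Figure D3:**
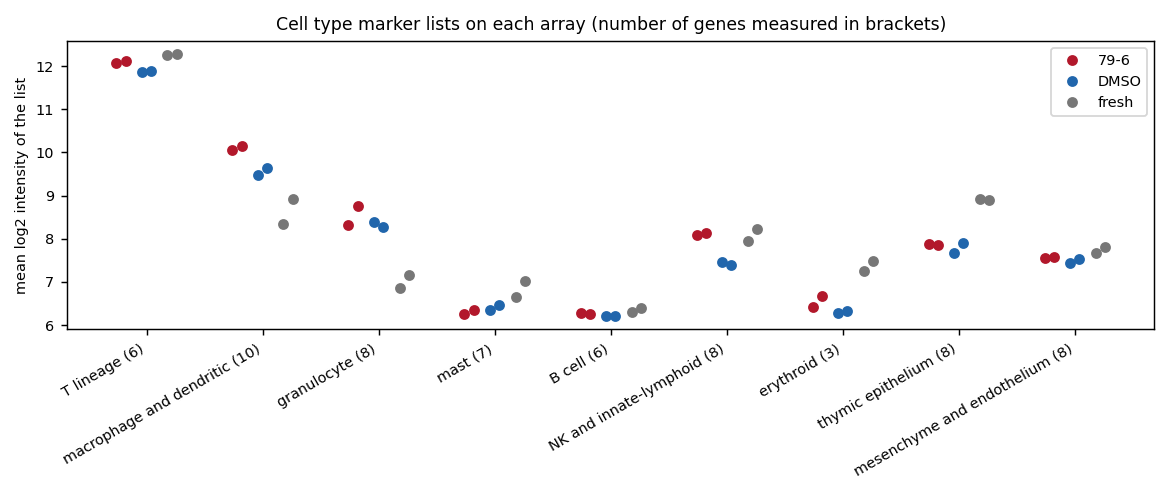
Mean log2 intensity of each cell type marker list on each array, with the 79-6, DMSO and fresh groups from left to right within a list. Points are arrays; macrophage and dendritic cell markers are highest with 79-6, and NK and innate-lymphoid markers are lower in DMSO than in both other groups.

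Most of these receptors lie beside one another in the genome. By RefSeq order on GRCm38.p6, Cd28, Ctla4 and Icos are consecutive measured genes on chromosome 1, Cd48, Slamf1 and Slamf6 share another stretch of chromosome 1 with further SLAM genes, and Cd5 and Cd6 lie close together on chromosome 19. Neighbours within a locus did not all move as one. Cd5 and Cd6 both rose in DMSO against fresh cells, and with 79-6 against DMSO both stood lower, Cd5 without a call. In the first locus the log2 changes for DMSO against fresh were 2.30 for Cd28, -0.95 for Ctla4 and -0.21 for Icos. The flanking genes Raph1 (0.64, adjusted p = 0.00384 by limma) and Abi2 (0.61, adjusted p = 0.00136 by limma) were higher, whereas Pard3b (0.16) and Nrp2 (-0.16) were not called. In the same locus Icos rose with 79-6 against DMSO and Abi2 fell by 0.41 (adjusted p = 0.0314 by limma), a call that no omission of a single array left standing.

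In the SLAM locus Ly9, another self-binding SLAM receptor, rose in DMSO against fresh cells by 1.66 ± 0.09 (SE, adjusted p = 4.62e-05 by limma) and Cd84 by 0.80 ± 0.12 (SE, adjusted p = 0.00346 by limma). Vangl2, a planar polarity gene beside Slamf6, rose by 0.92. Slamf7 (-0.45, adjusted p = 0.257 by limma) and Nhlh1 (-0.02) were not called, and neither were Cd48 and Slamf6. Cd48 rose with 79-6 against DMSO and Slamf1, the next measured gene, fell. Their 95% intervals, 0.37 to 0.74 and -1.27 to -0.81, lay on opposite sides of 0. The changes of Ly9 (0.34), Slamf7 (0.46), Cd84 (0.14), Vangl2 (-0.02) and Nhlh1 (0.07) were not called. At the third locus Cd5 and Cd6 both rose in DMSO, with A430093F15Rik between them at 0.13, Vps37c and Pga5 on one side at -0.24 and -0.16, and Slc15a3 and Tmem132a on the other at 0.27 and -0.05, none of the 5 called.

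**Figure D4:**
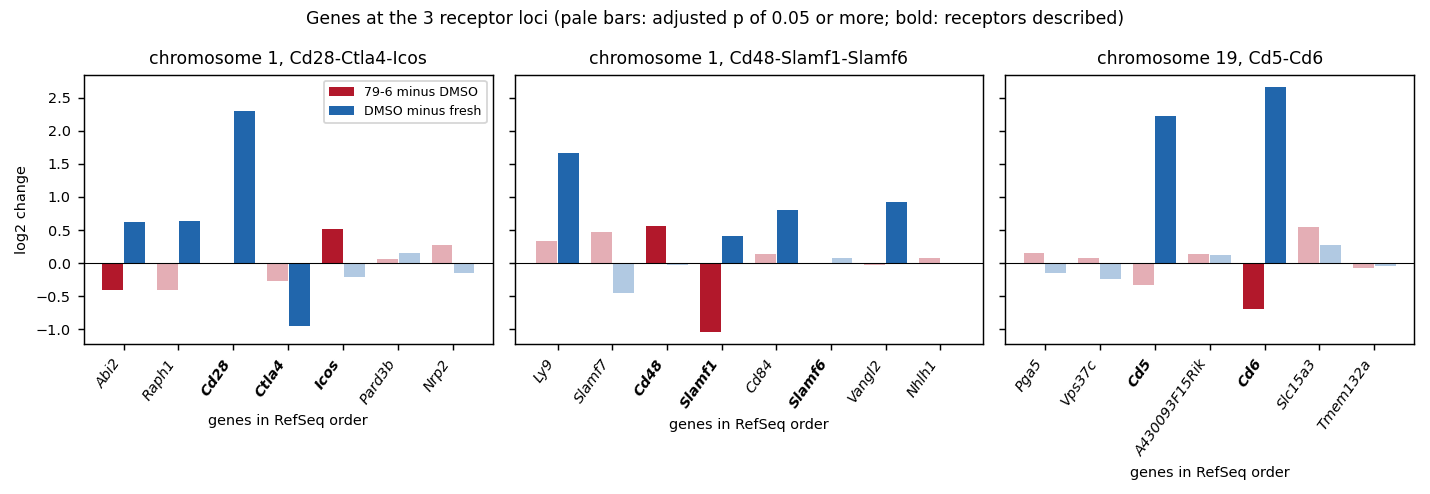
Log2 change of the receptors (bold) and their measured neighbours at 3 loci, in RefSeq order, for 79-6 minus DMSO (red) and DMSO minus fresh (blue); pale bars have an adjusted p of 0.05 or more. Cd28 and Ctla4 point in opposite directions with culture, Cd48 and Slamf1 in opposite directions with 79-6, and Cd5 and Cd6 rise together with culture.

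RefSeq promoters (GRCm38.p6) were at hand for 6 of the 10 receptors. The 250 bases before the start are shown for 4 of them, 1 for each direction in each comparison: Cd5 rose and Ctla4 fell in DMSO against fresh cells, and Cd48 rose and Slamf1 fell with 79-6 against DMSO. Capitals mark matches, on either strand, to CAGCTG or CAGGTG (E-boxes, read by E proteins), TGTGGT (Runx), TCCTAGA (a core of the Bcl6 motif) and GGAAAA (NFAT-like). The sequences run 5′ to 3′ along the gene.
Cd5, chr19:10738975-10739224, minus strand: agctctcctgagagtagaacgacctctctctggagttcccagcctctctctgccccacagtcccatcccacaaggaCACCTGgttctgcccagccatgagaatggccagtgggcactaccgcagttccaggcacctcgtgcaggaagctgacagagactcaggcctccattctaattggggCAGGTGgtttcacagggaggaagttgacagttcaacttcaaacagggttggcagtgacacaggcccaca
Ctla4, chr1:60908775-60909024, plus strand: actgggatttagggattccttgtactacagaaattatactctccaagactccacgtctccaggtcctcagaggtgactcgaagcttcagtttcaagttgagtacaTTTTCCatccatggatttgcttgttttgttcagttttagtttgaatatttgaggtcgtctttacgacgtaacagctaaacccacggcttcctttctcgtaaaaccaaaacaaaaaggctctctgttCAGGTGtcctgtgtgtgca
Cd48, chr1:171681742-171681991, plus strand: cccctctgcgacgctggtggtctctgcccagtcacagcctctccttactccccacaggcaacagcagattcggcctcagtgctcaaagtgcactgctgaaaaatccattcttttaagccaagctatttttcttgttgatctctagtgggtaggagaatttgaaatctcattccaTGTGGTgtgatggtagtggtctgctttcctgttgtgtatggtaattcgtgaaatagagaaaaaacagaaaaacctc
Slamf1, chr1:171766882-171767131, plus strand: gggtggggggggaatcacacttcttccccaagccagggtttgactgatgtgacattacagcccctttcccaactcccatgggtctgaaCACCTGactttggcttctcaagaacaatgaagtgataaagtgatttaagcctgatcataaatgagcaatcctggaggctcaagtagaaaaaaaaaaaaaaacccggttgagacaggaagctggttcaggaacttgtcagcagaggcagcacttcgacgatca
CAGGTG matched in 3 of the 6 receptor promoters (2 matches in Cd5, 1 in Ctla4 and 1 in Slamf1), against 17.2% of 32851 RefSeq promoters over the same 250 bases. TGTGGT matched in 1 of 6 (Cd48), against 14.0% of all, and GGAAAA in 2 of 6 (Cd27 and Ctla4), against 20.4%. CAGCTG and TCCTAGA matched in none of the 6, against 13.0% and 3.63% of all promoters. No match overlapped a match of another motif. The matches are letters in these windows, and binding was not measured.

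Partner genes were described through 5 lists of ligands, family members and cytoplasmic partners, of which 63 of 67 genes were measured. These lists too were chosen with earlier results of these data known. In DMSO against fresh cells 17 of the 63 were higher and 9 lower, and with 79-6 against DMSO 11 were higher and 2 lower. Over all genes 8.89% were called higher and 10.7% lower in DMSO against fresh, and 2.38% higher and 1.98% lower in 79-6 against DMSO. With 79-6 against fresh cells 25 of the 63 partner genes were higher and 8 lower, beside 12.0% higher and 13.9% lower over all genes. Of the 13 calls with 79-6 against DMSO, those of Pdcd1 and Cd160 alone survived the omission of any single array. The count was 3 without DMSO replicate 1, 2 without DMSO replicate 2, 8 without 79-6 replicate 1 and 2 without 79-6 replicate 2. The values of the other 11 genes with 79-6 below rest on all arrays together.

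Of 9 further SLAM receptors and SAP-type adaptors, 4 were higher and none lower in DMSO than in fresh cells. Besides Ly9 these were Cd84, Sh2d1a, which encodes SAP (1.62 ± 0.10, SE, adjusted p = 7.38e-05 by limma), and Sh2d1b1, an adaptor of NK and myeloid cells (1.31 ± 0.25, SE, adjusted p = 0.0101 by limma). The Sh2d1b1 call was lost without DMSO replicate 2 (adjusted p = 0.0699), and its probes may also read the near copy Sh2d1b2. The median of the list was -0.06. In 79-6 against DMSO 1 of 9 was higher, Slamf8, a receptor of myeloid cells (0.53 ± 0.08, SE, adjusted p = 0.0204 by limma), and the median was 0.31. Sh2d1a stood at -0.41 ± 0.10 (adjusted p = 0.0684 by limma). Against fresh cells the 79-6 group had 5 of 9 higher, with Ly9 at 2.01, Sh2d1b1 at 1.58 and Sh2d1a at 1.21.

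Of 11 ligands and relatives of CD28, 3 were higher and 1 lower in DMSO than in fresh cells, with a median of 0.03. Vsir, the inhibitory receptor VISTA, rose by 1.64 ± 0.09 (SE, adjusted p = 5.5e-05 by limma), and Pdcd1, the inhibitory receptor PD-1, by 0.90 ± 0.07 (SE, adjusted p = 0.000183 by limma). Cd274, which encodes the PD-1 ligand, fell by 0.63 ± 0.09 on the log2 scale (SE, adjusted p = 0.00234 by limma). The compound against DMSO gave 3 higher and 1 lower, with a median of 0.32. Pdcd1 fell by 0.86 ± 0.07 on the log2 scale (SE, adjusted p = 0.00236 by limma), while Vsir (0.71) and Cd86 (0.69), a ligand of CD28 and CTLA-4 on antigen-presenting cells, rose. The highest adjusted p for Pdcd1 was 0.0328 when 1 array was left out. Icosl, the ligand of ICOS, was not called in either comparison and stood at 0.16 with 79-6 against DMSO. With 79-6 against fresh cells 5 were higher and 1 lower, led by Vsir (2.36), the inhibitory receptor Btla (1.31) and Cd86 (0.95).

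Of 13 genes of costimulation through tumour necrosis factor receptors, 2 were higher and 2 lower in DMSO than in fresh cells, with a median of -0.03. Tnfrsf9, the receptor 4-1BB, fell by 1.22 ± 0.11 on the log2 scale (SE, adjusted p = 0.000317 by limma) and Tnfrsf4, the receptor OX40, by 0.51 ± 0.08 (SE, adjusted p = 0.00406 by limma). Traf5, an adaptor of CD27 and OX40, rose by 0.45 ± 0.09 (SE, adjusted p = 0.0102 by limma), which was not called when DMSO replicate 1, DMSO replicate 2 or fresh replicate 2 was omitted (adjusted p up to 0.0679). The 79-6 group had 2 higher and none lower than DMSO, Traf5 (0.73) and Tnfrsf9 (0.50), with a median of 0.15. Cd70, the ligand of CD27, was not called with 79-6 (0.07) or in DMSO (0.17). With 79-6 against fresh cells 2 were higher and 3 lower, with Traf5 at 1.18, Tnfrsf9 at -0.72 and Traf2 at 0.41. Traf2 was not called without fresh replicate 1 (adjusted p = 0.0568).

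Of 11 other ligands and inhibitory receptors, 4 were higher and 3 lower in DMSO than in fresh cells, with a median of -0.02. Pvr, a ligand of CD226 and CD96, rose by 1.52 ± 0.09 and Cd226 by 1.04 ± 0.11, and Cd160, a receptor of NK cells and innate-like T cells, fell by 0.78 ± 0.08 on the log2 scale (SE, adjusted p at most 0.000716 by limma). Cd160 rose with 79-6 against DMSO by 1.59 ± 0.08 (SE, adjusted p = 0.000357 by limma) and Cd96 by 0.47, while Pvr fell by 0.65 on the log2 scale, with a list median of 0.06. With 79-6 against DMSO Cd160 and Cd96 rose alongside the NK and innate-lymphoid markers given above, whose part was not tested. In DMSO against fresh cells Cd160 fell, as 5 of those 8 markers did, while Cd96 did not fall. Alcam, the ligand of CD6, fell by 0.67 ± 0.08 on the log2 scale in DMSO against fresh cells (SE, adjusted p = 0.00107 by limma). With 79-6 against fresh cells 5 were higher and 2 lower, with Cd226 at 1.03, Cd96 at 1.01 and Pvr at 0.87.

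Of 19 cytoplasmic partners, 4 were higher and 3 lower in DMSO than in fresh cells, with a median of 0.14. Cblb, a ubiquitin ligase that sets the need for CD28 costimulation, changed most (-1.87 ± 0.09, SE, adjusted p = 2.95e-05 by limma). Themis, which supports thymocyte signalling, and Prkcq, a kinase downstream of CD28, rose by 0.54 each. The 79-6 group had 3 higher and none lower than DMSO, with a median of 0.07: Pik3cd, a catalytic subunit of the phosphoinositide kinase recruited by CD28 and ICOS (0.67), the phosphatase Ptpn6 (0.50) and Prkcq (0.39). Prkcq lost its call on omission of any single array (adjusted p up to 0.155). With 79-6 against fresh cells 8 were higher and 2 lower, with Cblb at -1.76, Prkcq at 0.92 and Ptpn6 at 0.76.

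**Figure D5:**
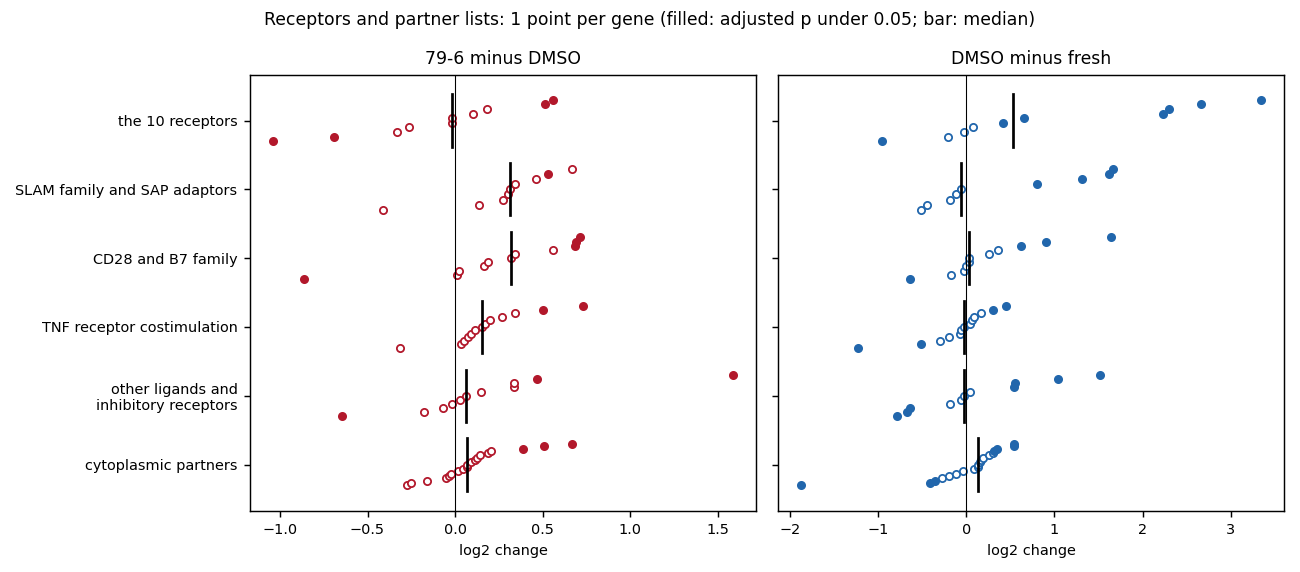
Log2 change of the 10 receptors and of each measured gene of the 5 partner lists for 79-6 minus DMSO (left) and DMSO minus fresh (right). Each point is a gene, filled where its adjusted p is under 0.05, and black bars are medians; the horizontal scales differ, and the highest points with 79-6 and with culture are Cd160 (1.59) and Cd2 (3.35).

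The genes closest in pattern were found by the root mean square (RMS) difference between log2 values centred on each gene's mean over the 6 arrays, for the 6 receptors whose group means spanned at least 1 log2 unit. Such nearness rests on 3 group levels and is a description. Cd2 lay closest to Ly6a2 (RMS 0.19) and the coreceptor gene Cd8b1 (0.28). Cd5 lay closest to the sialyltransferase St6gal1 (0.10) and Glcci1 (0.10), and Cd6 to the same genes in the other order (Glcci1 0.18, St6gal1 0.20). Cd28 lay closest to the transcription regulator Id3 (0.10) and to Slc28a2b (0.10). Slamf1 lay closest to Rgs16 (0.13), a regulator of G protein signalling, and to the probe set annotated Mir181a-1 (0.13). Their changes with 79-6 against DMSO were -0.80 for Rgs16 and -1.01 for Mir181a-1. Ctla4 lay closest to the transporter genes Slc23a4 (0.06) and Slc5a3 (0.07). Among these 6 receptors the nearest pairs were Cd5 and Cd28 (0.18), Cd5 and Cd6 (0.20), and Cd6 and Cd28 (0.28).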

How the data were processed

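Total RNA of Thy1.2+ cells was hybridised to 6 one-colour Affymetrix whole-transcript arrays. The authors deposited linear intensity values; RMA and the R package oligo are named in the submitters' processing notes, without versions. The genome build is not given in the sources used here. Intensities ran from 8.75 to 25316 with 0 missing, and log2 was taken before every test, since the deposited intensity values were not logged. Of 34760 probe sets, 21640 had 1 gene symbol, 1321 several and 11799 none. For each of 19937 genes the brightest 1-symbol probe set was used, and each receptor had 1. A limma model (3.58.1, R 4.3.3, lmFit and eBayes) with group means was fitted to the 6 arrays; it had 3 residual and 4.24 prior degrees of freedom. Tests were two-sided and p-values adjusted by Benjamini-Hochberg over all genes. The script was tested on simulated data. Receptors and lists were chosen with earlier results of these data known.

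Same-numbered arrays deviated together at correlations of -0.07, 0.09 and 0.00 across genes, so replicate numbers were not taken to pair arrays. All 10 receptors were named in each comparison, with up to 3 called genes of largest change per partner list, locus neighbours and the 2 nearest patterns. Icosl, Cd70, Alcam, Sh2d1a with 79-6 and Cd84 were named after their values were seen, as were the marker genes. The alternatives were a replicate block, arrays set to 1 median, a variance trend, leaving out genes under the 25th percentile of mean intensity (all 10 receptors passed), the mean over probe sets, only the 2 groups compared, and leaving out each array. Arrays give no counts, so their number limits the precision. Listed genes without a value are not reported here.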

Additional observations from a re-analysis of the deposited data

How the results depend on the processing

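The direction and call of the receptors Cd2, Cd27, Cd28 and Ctla4 were the same in all 3 comparisons under all 12 alternatives. In DMSO against fresh cells Cd48 changed sign, at 0.037 with the arrays set to 1 median, 0.045 without fresh replicate 2 and 0.021 without DMSO replicate 2, in a range of -0.089 to 0.045 with 1 array left out. For Slamf6 in 79-6 against DMSO leaving out 1 array gave -0.063 to 0.031, and the sign changed without 79-6 replicate 2. Both were uncalled throughout. Leaving out 1 array moved the number of called genes to between 2286 and 4070 for DMSO against fresh, 93 and 661 for 79-6 against DMSO, and 3081 and 5068 for 79-6 against fresh. The receptors called ranged from 6 to 7, from 1 to 4 and from 8 to 9, listed as above. These fits leave 1 array in a group and assume that it varies like the others. With a variance trend 79-6 against DMSO gave 1610 genes and 20 partner genes, against 869 and 13 as reported. With the replicate block the counts of genes were 3667, 774 and 4852, and those of receptors 7, 4 and 9. The added receptor was Icos with 79-6 against fresh (adjusted p = 0.0498 by limma), which was also called with the arrays set to 1 median (0.0486) and with a variance trend (0.0407). No array values measure protein, and with 2 arrays a group small changes cannot be resolved.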
